A study of Mus musculus with 7 samples.

Results

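The genes described here are 9 with which astrocytes clear transmitter, buffer ions and water, and couple to each other and to synapses, namely *Slc1a2*, *Slc1a3*, *Glul*, *Kcnj10*, *Aqp4*, *Gja1*, *Gjb6*, *Slc4a4* and *Gpc5*. They were matched by symbol among the 55536 genes of the count tables, and all 9 were found. Their transcripts were counted in hippocampal nuclei of 24 wells, each with the nuclei of 1 mouse, and summed per well and cell type. Wild-type (WT) littermates drank water (group WT-veh) or water with PMX205 (group WT-PMX), and so did Arctic48 mice (groups Arc-veh and Arc-PMX). Each group had 6 wells, of which 3 held female nuclei (numbered F1, F2, F3) and 3 male nuclei (numbered M1, M2, M3). Arctic48 mice are a model of Alzheimer's disease, hemizygous for a human APP transgene with the Indiana, Swedish and Arctic mutations on a C57BL6/J background. The promoter that drives the transgene is not given in the sources used here. PMX205, a cyclic hexapeptide that antagonizes the complement receptor C5aR1, was given in drinking water at 20 µg/ml, for 12 weeks by the sample labels, whereas the paper's text gives a shorter period. All mice were perfused at 10 months of age. The labels name inhibitors of transcription in the perfusion buffer, and the paper names them only for the processing of the pooled microglia, so whether they reached the nuclei is not settled.

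Astrocytes take up glutamate from the synaptic cleft through 2 transporters, GLT-1 (*Slc1a2*) and GLAST (*Slc1a3*), and glutamine synthetase (*Glul*) turns it into glutamine for return to neurons. Potassium released by active neurons enters through Kir4.1 (*Kcnj10*), water crosses through aquaporin-4 (*Aqp4*), which is concentrated on the endfeet around vessels, and the sodium bicarbonate cotransporter NBCe1 (*Slc4a4*) regulates pH. Gap junctions of connexin 43 (*Gja1*) and connexin 30 (*Gjb6*) join astrocytes into a network, and glypican 5 (*Gpc5*) is a heparan sulfate proteoglycan of the cell surface. In reactive astrocytes, which surround amyloid plaques, the intermediate filament gene *Gfap* is raised.

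The well totals ran from 4389302 to 30001277 transcripts, and 1150 to 3111 nuclei per well were kept. Female wells held 410 to 1087 counts scaled to library size (CPM) of *Xist* and male wells 1.51 to 7.20. Neuronal *App* was 441 to 574 CPM in WT and 545 to 794 CPM in Arctic wells. These *App* ranges overlapped, so *App* does not settle the genotype of each well. Of 40769 barcode combinations, 4080 occurred in more than 1 of the 7 sublibraries that share all wells. Clusters were formed and named without the members. Astrocyte nuclei numbered 5436, with 116 to 326 per well and 101020 to 1145684 transcripts per summed well. All 10 astrocyte naming markers were detected in each group, with a summed level of 4721 to 6207 CPM. CPM was scaled to all transcripts of the summed nuclei. Because nuclei were measured, RNA in astrocyte processes was not.

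The promoters of the 3 members that passed as lower in Arc-veh than in WT-veh astrocytes are shown here so that their sequences can be set side by side. They come from RefSeq (GRCm38.p6) and run from 250 bases before to 50 bases after an annotated start, on the plus strand. Of the 9 members, 8 had an entry. The windows are chr2:102706188-102706487 for *Slc1a2*, chr1:153899679-153899978 for *Glul* and chr14:115091965-115092264 for *Gpc5*. Capitals mark matches, on either strand, to the motifs searched, namely the TATA box TATAAA, the GC box GGGCGG, the NFI core TTGGC, the STAT motif TTCNNNGAA, the AP-1 motif TGACTCA and the E-box CACGTG.
Slc1a2: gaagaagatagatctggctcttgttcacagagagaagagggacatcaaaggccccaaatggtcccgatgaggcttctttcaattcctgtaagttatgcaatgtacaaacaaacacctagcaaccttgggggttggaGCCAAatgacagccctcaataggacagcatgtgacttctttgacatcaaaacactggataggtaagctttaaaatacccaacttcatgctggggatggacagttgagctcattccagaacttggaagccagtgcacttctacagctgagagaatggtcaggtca
Glul: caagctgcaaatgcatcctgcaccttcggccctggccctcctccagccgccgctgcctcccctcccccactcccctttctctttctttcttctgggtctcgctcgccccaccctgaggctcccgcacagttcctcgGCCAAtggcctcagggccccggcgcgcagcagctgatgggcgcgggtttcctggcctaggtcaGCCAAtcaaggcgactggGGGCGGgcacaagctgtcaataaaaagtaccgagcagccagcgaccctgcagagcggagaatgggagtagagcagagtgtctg
Gpc5: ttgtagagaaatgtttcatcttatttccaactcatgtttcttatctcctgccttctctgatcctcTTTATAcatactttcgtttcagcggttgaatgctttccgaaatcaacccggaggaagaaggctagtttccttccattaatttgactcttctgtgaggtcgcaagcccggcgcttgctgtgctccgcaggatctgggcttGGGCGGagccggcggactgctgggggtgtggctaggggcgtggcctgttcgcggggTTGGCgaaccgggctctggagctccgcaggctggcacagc
TTGGC was the motif found in all 3 windows, and 46.7% of 32851 promoters held it. GGGCGG was found in those of *Glul* and *Gpc5*, against 35.7% of all promoters, and TATAAA in that of *Gpc5*, against 13.6%. Members that did not pass between Arc-veh and WT-veh also held these motifs. TTGGC was found for *Kcnj10* and *Slc4a4*, GGGCGG for *Slc1a3*, *Kcnj10* and *Slc4a4*, and TATAAA for *Slc1a3*. The other motifs had no match in the 3 windows and were present in 8.30% (TTCNNNGAA), 5.20% (TGACTCA) and 7.15% (CACGTG) of all promoters. TTCNNNGAA was found for *Slc1a3*, and TGACTCA for *Gja1*, which was lower in Arctic astrocytes over both treatments. A match is a description of letters and not a site of binding. In the gene annotation (GENCODE M21, GRCm38) *Glul* spans 9.8 kb, *Slc1a2* 132.1 kb and *Gpc5* 1433.0 kb, and the *Slc1a2* window lies inside the annotated span of the gene.

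Across the types of nuclei, 7 of the 9 members had their highest mean level in astrocytes. *Slc1a2* reached 9849 ± 1498 CPM there (SD, n = 24 wells), and endothelial nuclei, the next type, had 441 ± 444 CPM (n = 17). *Slc1a3* had 4156 ± 844 CPM in astrocytes and 1223 ± 559 CPM in fibroblasts (n = 12). *Slc4a4* had 2581 ± 233 CPM in astrocytes and 451 ± 143 CPM in fibroblasts. For these 3 genes no well of the second type reached the lowest astrocyte well. *Gpc5* was shared with oligodendrocyte precursor cells (OPC), at 9942 ± 2541 CPM in astrocytes and 4487 ± 558 CPM in OPC (n = 24), and the OPC wells lay below all astrocyte wells and above all wells of the next type. *Glul* (501 ± 153 CPM), *Aqp4* (325 ± 135 CPM) and *Gja1* (245 ± 93.3 CPM) were highest in astrocytes, but their ranges met those of fibroblasts, ependymal nuclei and fibroblasts, in that order. The exceptions were *Kcnj10*, with 116 ± 46.6 CPM in oligodendrocytes and 97.6 ± 22.9 CPM in astrocytes, and *Gjb6*, with 186 ± 130 CPM in fibroblasts and 99.8 ± 26.4 CPM in astrocytes. In both cases the ranges overlapped.

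**Figure D1:**
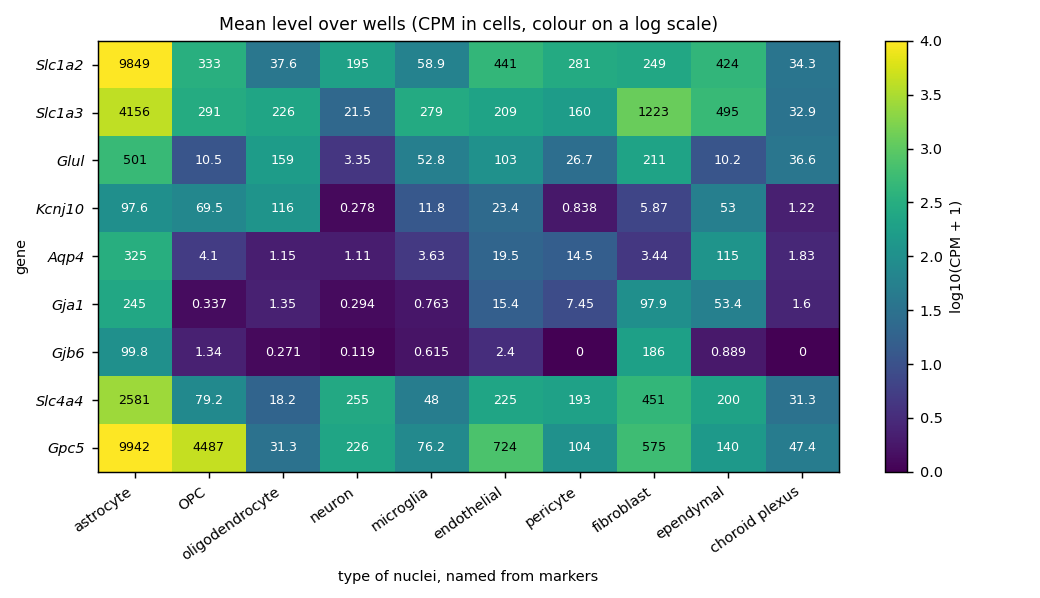
Mean CPM over wells of the 9 members (rows) in 10 marker-named types of nuclei (columns), with the colour on a log scale. Rows are to be read on their own, since CPM is not per length, and the brightest cell of a row is in the astrocyte column except for *Kcnj10* (oligodendrocytes) and *Gjb6* (fibroblasts).

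Neurons had low levels of most members, and 4 of them are described here by neuronal cluster. *Slc4a4* was 887 ± 107 CPM and 917 ± 121 CPM in both large clusters with dentate gyrus markers (n = 24 wells), against means of 6.79 to 684 CPM over 5 clusters with CA1 markers and 2.64 to 125 CPM over 3 of 4 with CA3 markers. *Slc1a2* had 963 ± 134 CPM in a cluster led by *Vwc2l* and *Tshz2*, and means of 62.3 to 265 CPM over the CA1-marked and 48.9 to 492.7 CPM over the CA3-marked clusters. *Gpc5* had means of 13.7 to 969 CPM over the CA1-marked and 15.7 to 121 CPM over the CA3-marked clusters. The ranges of the CA1-marked and CA3-marked clusters overlapped for these 3 genes. *Slc1a3* had 62.5 ± 17.4 and 65.9 ± 16.5 CPM in the dentate gyrus clusters and lower means, 2.62 to 26.5 CPM, in the other neuronal clusters. These are descriptions of clusters, with no test. With each nucleus thinned to 1000 transcripts, *Aqp4* was detected in 25.5% of astrocyte nuclei and 0.085% of neurons, *Gja1* in 22.0% and 0.017%, and *Glul* in 36.4% and 0.305%. Nuclei with fewer transcripts were left out, which kept 4454 of 5436 astrocyte nuclei. Before thinning the shares were 38.4% and 1.09% for *Aqp4*, at median depths of 1771 transcripts in astrocytes and 8401 in neurons. Among thinned astrocyte nuclei the share with *Aqp4* was 5.88 to 19.01% in WT-veh and 22.4 to 37.6% in Arc-veh wells, and that with *Glul* was 35.3 to 50% and 20.2 to 33.1%. Both pairs of ranges were apart. The WT-veh ranges include wells F3 and M3, with only 17 and 32 thinned nuclei. The ranges of the treated groups overlapped, at 14.4 to 30.7% in WT-PMX and 27.3 to 44.5% in Arc-PMX for *Aqp4*. For *Glul* they were 33.6 to 47.7% and 23.6 to 39.1%.

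The comparison of Arc-veh with WT-veh asked how the members differ with the Arctic transgene in untreated mice. *Aqp4* rose, and *Glul*, *Gpc5* and *Slc1a2* fell, while *Slc1a3*, *Kcnj10*, *Gja1*, *Gjb6* and *Slc4a4* did not pass the test. Over all 7298 genes tested in astrocyte nuclei, 12.6% passed (558 up and 364 down), and 4 of the 9 members did. The median log2 fold change was -0.24 over the members and 0.01 over all genes.

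Among the genes of glutamate handling, *Slc1a2* ranged from 9888 to 12435 CPM in WT-veh (median 10633) and from 7719 to 10311 CPM in Arc-veh (median 8203). The ranges overlapped, and all 6 Arc-veh wells lay below the WT-veh median. The log2 fold change was -0.37 (SE 0.089, edgeR adjusted p = 0.00304). *Glul* ranged from 525 to 735 CPM in WT-veh (median 646) and from 284 to 405 CPM in Arc-veh (median 369). These ranges were apart, with each Arc-veh well below each WT-veh well, and the log2 fold change was -0.87 (SE 0.13, adjusted p = 7.44e-06). *Slc1a3* ranged from 3311 to 5543 CPM in WT-veh (median 4533) and from 3605 to 5526 CPM in Arc-veh (median 4037), with overlap and a log2 fold change of -0.10 (95% interval -0.40 to 0.20, adjusted p = 0.773). The highest Arc-veh well, F1, stood apart from the other 5. The call of *Slc1a2* was lost with the summed level of neuronal markers as a further covariate (log2 fold change -0.25, SE 0.14, adjusted p = 0.427). It was also lost with nuclei thinned to 1000 transcripts and shallower ones left out (-0.26, adjusted p = 0.0749).

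The neuronal markers moved with genotype in the astrocyte sums. Their summed level (6 genes, all detected) was 651 to 711 CPM in WT-veh, 551 to 766 in WT-PMX, 347 to 522 in Arc-veh and 350 to 608 in Arc-PMX. The 6 pericyte markers together were 201 to 283, 201 to 344, 312.7 to 493.4 and 330 to 434 CPM in the same order, with 1 or 2 of them at 0 in each group. The 8 microglial markers (54.4 to 138 CPM over all wells) and the 6 oligodendrocyte markers (38.7 to 183 CPM) overlapped between groups, and so did the 5 OPC markers (53.9 to 238 CPM). The 6 endothelial markers were low, at 8.51 to 24.2 CPM in WT-veh, 4.21 to 19.01 in WT-PMX, 12.3 to 41.1 in Arc-veh and 21.2 to 40.6 in Arc-PMX, with at most 1 of them at 0 in a group, and the ranges of the treated groups were apart. With the neuronal level as a covariate *Aqp4*, *Glul* and *Gpc5* kept their genotype calls, and *Slc1a2* and *Gja1* lost those they had. Because that level was itself apart between WT-veh and Arc-veh, this fit cannot tell it from genotype. The part of these markers in the results was not tested further.

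Of the genes of ion and water transport, *Aqp4* ranged from 84.6 to 237 CPM in WT-veh (median 177) and from 280 to 561 CPM in Arc-veh (median 399). No Arc-veh well was as low as the highest WT-veh well, and the log2 fold change was 1.09 (SE 0.17, adjusted p = 1.16e-05). *Kcnj10* ranged from 76.8 to 158 CPM in WT-veh (median 103) and from 73.6 to 118 CPM in Arc-veh (median 88.6), and *Slc4a4* from 2217 to 2835 CPM (median 2509) and from 2407 to 2708 CPM (median 2490). Both overlapped throughout. Their log2 fold changes were -0.24 (95% interval -0.59 to 0.11, adjusted p = 0.474) and -0.04 (-0.23 to 0.15, adjusted p = 0.863).

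The connexins did not pass the test in untreated mice. *Gja1* ranged from 119 to 444 CPM in WT-veh (median 232) and from 187 to 256 CPM in Arc-veh (median 202), with a log2 fold change of -0.40 (95% interval -0.76 to -0.03, adjusted p = 0.175). *Gjb6* ranged from 79.2 to 145 CPM (median 101) and from 55.1 to 136 CPM (median 102), with a log2 fold change of -0.17 (-0.58 to 0.24, adjusted p = 0.710). The WT-veh wells of *Gja1* were spread widely and enclosed the Arc-veh range. *Gpc5* ranged from 11279 to 14522 CPM in WT-veh (median 12444) and from 6429 to 8562 CPM in Arc-veh (median 8155), and the groups were apart. Its log2 fold change was -0.75 (SE 0.094, adjusted p = 1.57e-07).

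**Figure D2:**
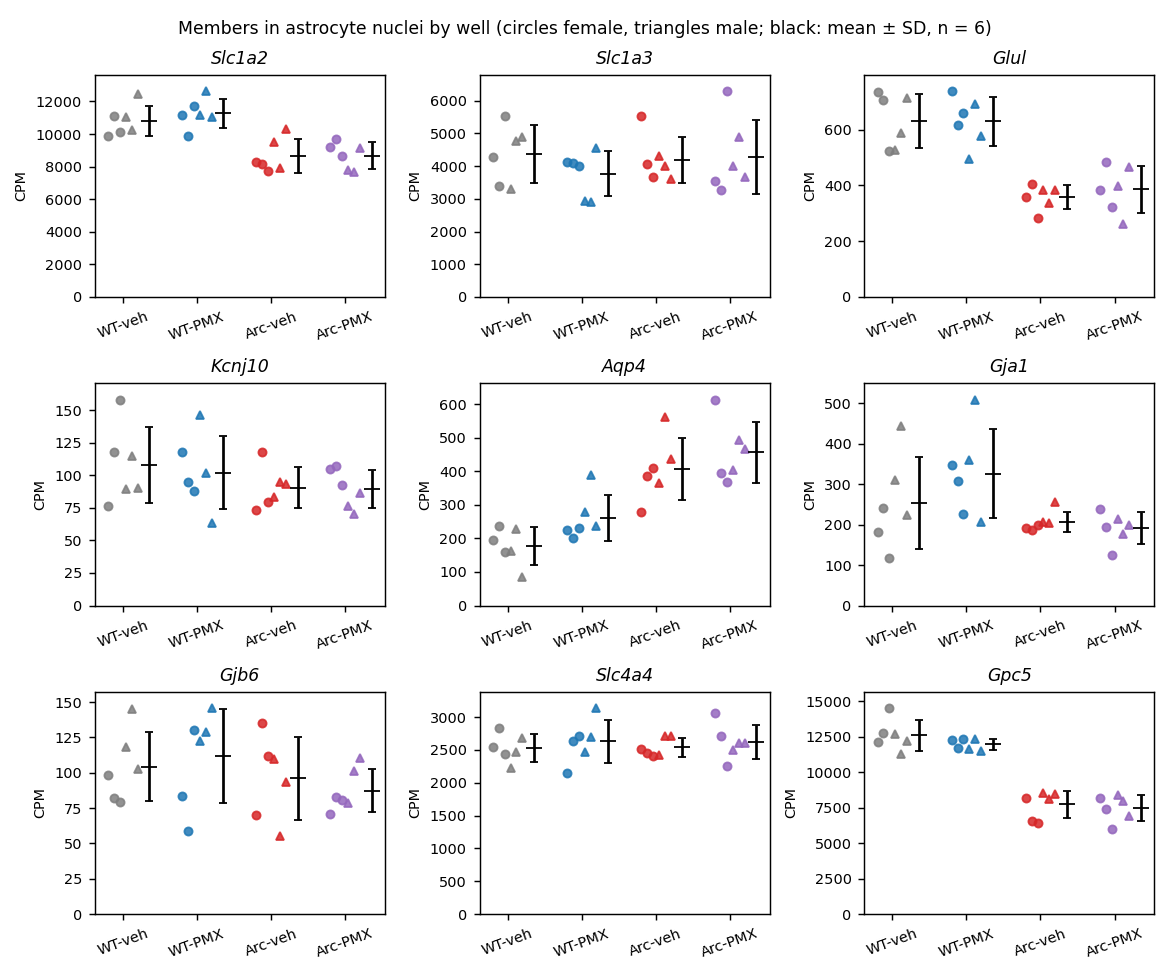
CPM of each member in astrocyte nuclei, with 1 point per well (circles female, triangles male), the mean ± SD beside each group (n = 6) and axes that start at 0. The Arctic wells of *Glul* and *Gpc5* lie below all WT wells in both treatments, *Aqp4* lies above the WT median in all Arctic wells, and *Slc4a4* is level across the groups. How many of all genes separate as *Glul* and *Gpc5* do was not counted.

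The same contrast in treated mice, Arc-PMX against WT-PMX, shares no well with the first. In it 11.2% of genes passed, and 5 members did. *Glul* ranged from 494 to 738 CPM in WT-PMX (median 639) and from 261 to 485 CPM in Arc-PMX (median 390), and fell by 0.75 on the log2 scale (SE 0.13, adjusted p = 5.83e-05). *Gpc5* ranged from 11478 to 12374 CPM (median 11988) and from 5971 to 8403 CPM (median 7680), and fell by 0.72 (SE 0.094, adjusted p = 3.01e-07). *Slc1a2* ranged from 9881 to 12640 CPM (median 11174) and from 7665 to 9669 CPM (median 8887), and fell by 0.41 (SE 0.089, adjusted p = 8.83e-04). For these 3 genes no Arc-PMX well reached a WT-PMX well. How many of all genes had groups apart was not counted in this or any other comparison. *Aqp4* ranged from 203 to 389 CPM in WT-PMX (median 234) and from 367 to 614 CPM in Arc-PMX (median 435). The highest WT-PMX well met the Arc-PMX range, and the log2 fold change was 0.76 (SE 0.16, adjusted p = 7.92e-04). *Gja1* ranged from 206 to 510 CPM in WT-PMX (median 328) and from 125 to 240 CPM in Arc-PMX (median 198), and fell by 0.79 (SE 0.17, adjusted p = 0.00112), with all 6 Arc-PMX wells below the WT-PMX median and an overlap of the ranges. With the neuronal level as a covariate the calls of *Slc1a2* (-0.34, SE 0.11, adjusted p = 0.0619) and *Gja1* (-0.72, SE 0.23, adjusted p = 0.0572) were lost.

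Over both treatments (12 Arctic against 12 WT wells) 20.1% of genes passed, and so did 5 members. *Aqp4* rose by 0.93 on the log2 scale (SE 0.12, adjusted p = 7.44e-08). *Glul* fell by 0.81 (SE 0.094, adjusted p = 9.24e-09), *Gpc5* fell by 0.73 (SE 0.067, adjusted p = 2.43e-11), *Slc1a2* fell by 0.39 (SE 0.063, adjusted p = 5.65e-06) and *Gja1* fell by 0.59 (SE 0.13, adjusted p = 3.68e-04). All 12 Arctic wells lay below all 12 WT wells for *Glul* and *Gpc5*, and how many of all genes separate in this way was not counted. With the neuronal level as a covariate *Slc1a2* (-0.29, SE 0.11, adjusted p = 0.0962) and *Gja1* (-0.50, SE 0.23, adjusted p = 0.208) were lost here too.

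PMX205 moved no member past the test. Between Arc-PMX and Arc-veh 0.0137% of genes passed (1 of 7298, with 139 at an unadjusted p under 0.05 by edgeR and 0 by DESeq2 after adjustment), and the member log2 fold changes ran from -0.16 (*Gjb6*) to 0.17 (*Aqp4*). The groups overlapped for all 9. The 95% intervals were -0.18 to 0.18 for *Slc1a2*, -0.25 to 0.13 for *Gpc5*, -0.17 to 0.37 for *Glul* and -0.15 to 0.48 for *Aqp4*. Between WT-PMX and WT-veh 0% of genes passed by edgeR (316 at an unadjusted p under 0.05). *Aqp4* was 203 to 389 CPM with PMX205 and 84.6 to 237 CPM without, with all 6 treated wells above the WT-veh median, a log2 fold change of 0.49 (95% interval 0.13 to 0.86) and an adjusted p of 1.0. Setting the PMX205 effect of Arctic mice against that of WT mice also gave 0% (243 genes at an unadjusted p under 0.05 by edgeR). Its member estimates ran from -0.40 (*Gja1*) to 0.25 (*Slc1a3*).

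**Figure D3:**
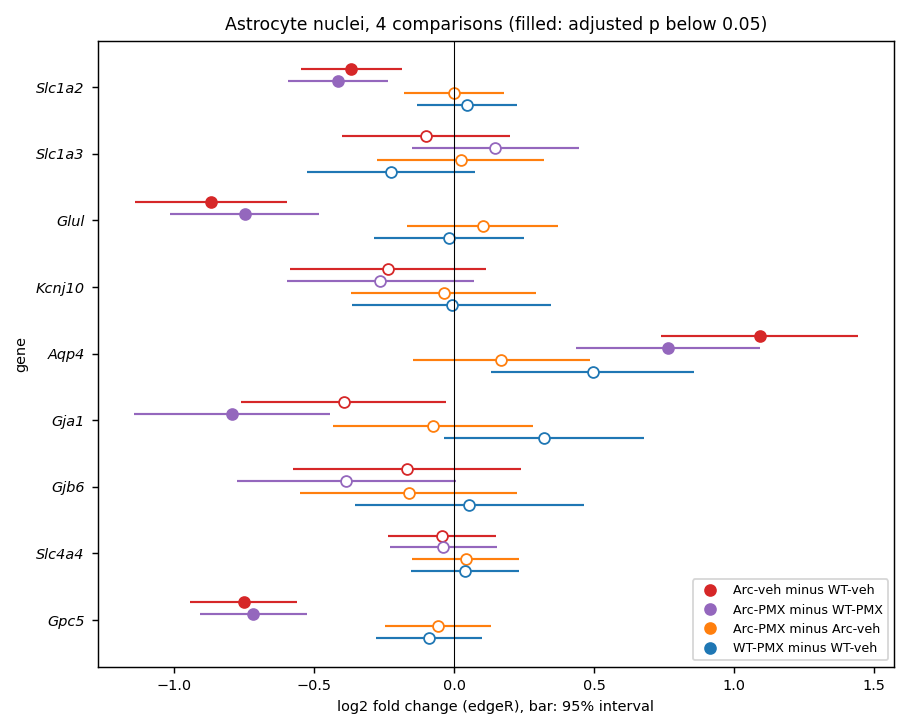
Log2 fold changes of the 9 members in astrocyte nuclei with 95% intervals for both genotype and both treatment comparisons, filled where the adjusted p passed 0.05. The genotype estimates of *Glul*, *Gpc5* and *Slc1a2* lie left of 0 and those of *Aqp4* right of it, and all 18 treatment estimates are open. Comparisons that share a group are not independent.

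Sex moved no member either. Between females and males 0.137% of genes passed (10 of 7298), and the member with the largest estimate was *Gja1* (-0.31, adjusted p = 0.455). In WT wells *Gja1* was 119 to 349 CPM in females and 206 to 510 CPM in males. The genotype effect in females minus that in males passed for 0% of genes (408 at an unadjusted p under 0.05 by edgeR), with *Gjb6* at 0.54 and *Gpc5* at -0.28 (adjusted p = 0.888 and 0.866).

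In other types no member passed in Arc-veh against WT-veh. With nuclei named by their highest marker score instead, *Slc1a2* passed in oligodendrocytes (-1.71, adjusted p = 0.0371, against -0.05) and *Glul* in microglia (-1.28, adjusted p = 0.00608). By the main naming these genes were low there, at 37.6 ± 20.7 CPM (n = 24) and 52.8 ± 65.9 CPM (n = 21). By that naming only 4 WT-veh wells held 10 microglia nuclei. The share of all genes that passed under the marker-score naming is not given here. By the main naming the share of genes that passed was 0.0668% in neurons (6 members tested), 2.64% in oligodendrocytes (5), 1.01% in OPC (5) and 11% in microglia (1, *Slc1a3*). *Gpc5*, the member that OPC share with astrocytes, had a log2 fold change of -0.20 there (95% interval -0.38 to -0.02, adjusted p = 0.471). *Kcnj10* and *Glul* in oligodendrocytes had -0.37 and -0.38 (adjusted p = 0.628 and 0.504). Between Arc-PMX and Arc-veh the shares were 0% in neurons, 0.0215% in oligodendrocytes, 0.0306% in OPC and 0% in microglia, with 0 members. By edgeR 288 genes of neurons and 63 of microglia had an unadjusted p under 0.05 there. The difference between astrocytes and other types was not tested.

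*Gfap* rose by 3.14 on the log2 scale in Arc-veh astrocytes. The nuclei were divided by whether a *Gfap* transcript was detected after thinning to 1000 transcripts, which misses some nuclei that express it. Nuclei with fewer transcripts were left out, more of them in WT. This kept 1015 of 1477 nuclei in WT-veh, 1190 of 1469 in WT-PMX, 1090 of 1206 in Arc-veh and 1159 of 1284 in Arc-PMX. The share with *Gfap* was 9.38 to 23.5% in WT-veh, 7.88 to 20.1% in WT-PMX, 39.3 to 66.3% in Arc-veh and 35.5 to 71.3% in Arc-PMX. Both ends of the WT-veh range came from wells with few thinned nuclei, M3 with 3 of 32 and F3 with 4 of 17. Within wells that had at least 10 nuclei of each class (22 of 24), 16.5% of 1780 genes passed, and so did 3 of the 7 members tested. *Aqp4* was higher in nuclei with *Gfap* in 21 of 22 wells (log2 difference 0.96, SE 0.10, adjusted p = 1.32e-12). *Gpc5* was lower in 22 of 22 wells (-0.45, SE 0.036, adjusted p = 3.77e-18). *Glul* was lower in 16 of 22 (-0.24, SE 0.082, adjusted p = 0.0294), but this call was lost on leaving out any of WT-veh M1, Arc-veh F2, F3 or M2 (adjusted p up to 0.0742) and at 500 transcripts (-0.16, adjusted p = 0.439). *Kcnj10* and *Gjb6* did not pass the filter on low counts. *Slc1a2* (-0.08, adjusted p = 0.0620), *Slc1a3* (0.02), *Gja1* (-0.12) and *Slc4a4* (-0.06) did not pass the test. *Slc1a2* passed in 3 of 5 alternatives (-0.31 to -0.07, adjusted p = 5.26e-05 to 0.147) and on leaving out 9 of those 22 wells in turn. *Gja1* passed with at least 2 *Gfap* transcripts (-0.54, adjusted p = 0.0148) and *Slc4a4* with no filter on low counts (-0.29, adjusted p = 0.0126).

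Within each class the genotypes were then compared over both treatments. In nuclei without *Gfap*, 8.08% of genes passed. This class still held nuclei whose *Gfap* transcripts were lost in thinning, more so in Arctic wells. The mean share with *Gfap* was 55.9% thinned and 71.3% without thinning in Arc-veh, and 52.9% and 67.7% in Arc-PMX. It was 13.5% and 14.3% in WT-veh, and 15.9% and 22.7% in WT-PMX, with shallower nuclei included where none were thinned. The class was therefore not matched between genotypes. *Aqp4* ranged from 0 to 369 CPM in WT (median 196) and from 148 to 446 CPM in Arctic wells (median 304), with overlap and a log2 fold change of 0.71 (SE 0.17, adjusted p = 0.00430). The well at 0 CPM, WT-veh F3, had 13 nuclei without *Gfap*. *Gpc5* fell by 0.37 (SE 0.064, adjusted p = 8.22e-05), *Glul* fell by 0.54 (SE 0.11, adjusted p = 0.00116) and *Slc1a2* fell by 0.23 (SE 0.064, adjusted p = 0.0186). *Gja1* (-0.21, 95% interval -0.51 to 0.08, adjusted p = 0.481), *Slc1a3* (-0.13, adjusted p = 0.646), *Kcnj10* (-0.31), *Gjb6* (-0.08) and *Slc4a4* (-0.07) did not pass. In nuclei with *Gfap*, 11.4% of genes passed, from 10 WT and 12 Arctic wells. This class was not matched between genotypes either, since *Gfap* itself was higher in its Arctic nuclei (0.71, SE 0.11, adjusted p = 7.03e-06). *Aqp4* ranged from 300 to 842 CPM in WT (median 483) and from 348 to 824 CPM in Arctic wells (median 504), a log2 difference of 0.14 (95% interval -0.20 to 0.48, adjusted p = 0.676). *Gpc5* fell by 0.49 (SE 0.096, adjusted p = 3.62e-04), *Glul* fell by 0.63 (SE 0.19, adjusted p = 0.0195) and *Slc1a2* fell by 0.28 (SE 0.083, adjusted p = 0.0210). *Gja1* ranged from 260 to 692 CPM in WT (median 377) and from 73.2 to 250 CPM in Arctic wells (median 183), without overlap, and fell by 1.22 (SE 0.21, adjusted p = 3.58e-05). The class had 13 to 57 nuclei per WT well and 61 to 132 per Arctic well, each thinned to 1000 transcripts. These *Gja1* levels therefore rest on few transcripts, and the lowest WT and highest Arctic wells lie close. *Slc1a3* did not pass (0.35, 95% interval 0.10 to 0.60, adjusted p = 0.0618). It passed in 3 of 5 alternatives (0.23 to 1.27 over all 5) and on leaving out 5 of the 22 wells of this class in turn. *Slc4a4* did not pass either, but did in 1 of 5 alternatives (0.03 to 0.46 over all 5, adjusted p = 0.0150 to 0.958).

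The calls in nuclei with *Gfap* depended on the processing. With no filter on low counts *Gja1* kept its call, while *Gpc5* was -0.17 (adjusted p = 0.452), *Glul* -0.33 (adjusted p = 0.473) and *Slc1a2* 0.05 (adjusted p = 0.988). The values of *Gpc5*, *Glul* and *Slc1a2* all moved upward, so these losses are not separate results for each gene. At 500 transcripts *Glul* was -0.40 (adjusted p = 0.407). With at least 2 *Gfap* transcripts required, which left 1 WT-veh and 3 WT-PMX wells, none of these 4 calls in nuclei with *Gfap* was kept. *Gja1* was then -0.75 (adjusted p = 0.528) and *Slc1a2* -0.10 (adjusted p = 0.832), and the direction turned for *Gpc5* (0.16, adjusted p = 0.761) and *Glul* (0.04, adjusted p = 0.9751). In nuclei with *Gfap* the call of *Glul* was lost without WT-veh F2, WT-veh M2 or WT-PMX M2 (adjusted p = 0.0534 to 0.0972), and that of *Slc1a2* without WT-veh F2, WT-veh M1 or WT-PMX F3 (adjusted p = 0.0529 to 0.0830). In nuclei without *Gfap* the call of *Slc1a2* was lost without WT-veh F2, WT-veh M3, Arc-veh F3 or Arc-PMX M3 (adjusted p = 0.0506 to 0.0679) and with no thinning (-0.21, adjusted p = 0.0543). Without WT-veh F2 *Glul* was -0.58 (adjusted p = 0.0972) and *Slc1a2* -0.26 (adjusted p = 0.0830) in nuclei with *Gfap*, and *Slc1a2* was -0.21 (adjusted p = 0.051) in nuclei without, which left 5 calls over both classes in place of 8.

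The difference between nuclei with and without *Gfap* was itself compared between genotypes, a test chosen after seeing the data, in which 2.19% of genes and 2 members passed. That difference was lower in Arctic mice for *Gja1* (-0.93, SE 0.22, adjusted p = 0.00398) and higher for *Slc1a3* (0.39, SE 0.079, adjusted p = 5.10e-04). *Aqp4* did not pass (-0.57, 95% interval -0.95 to -0.18, adjusted p = 0.111). The call of *Gja1* was kept in 2 of 5 alternatives. It was lost at 500 transcripts (-0.42, adjusted p = 0.831), where 0 members passed, with no filter on low counts (-0.46, adjusted p = 0.526) and with at least 2 *Gfap* transcripts (-0.59, adjusted p = 0.656). *Slc1a3* kept its call in 4 of 5, and lost it at 500 transcripts (0.32, adjusted p = 0.130). With no filter *Gpc5* (0.38) and *Slc1a2* (0.49) moved upward as *Gja1* did, so the change there is not particular to *Gja1*.

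**Figure D4:**
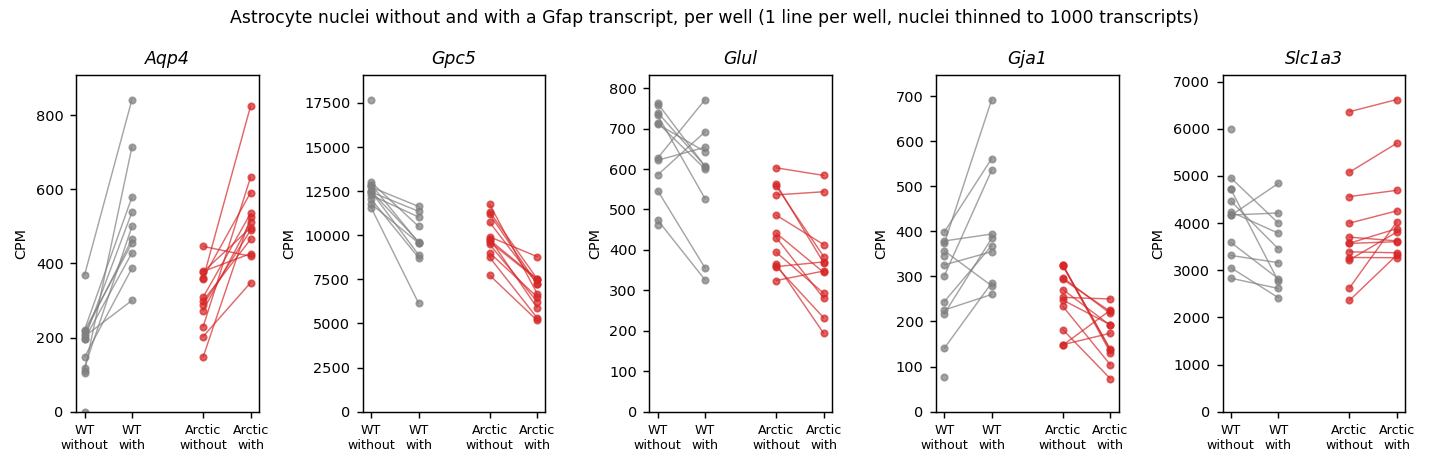
CPM per well of 5 members in astrocyte nuclei without and with a *Gfap* transcript after thinning to 1000 transcripts, in WT (grey) and Arctic (red) wells, with a line joining the classes of a well. *Aqp4* is higher with *Gfap* in 21 of 22 wells and *Gpc5* lower in 22 of 22. The *Gja1* of nuclei with *Gfap* is lower in each Arctic well than in each WT well. That class has only 13 to 57 nuclei per WT well.

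The same nuclei can be described by cluster. A cluster led by *Gpc5* and *Slc1a2* held 2467 WT and 866 Arctic nuclei, a cluster led by *Gfap*, with *Osmr* and *Ggta1* among its leading genes, held 36 WT and 1187 Arctic nuclei, and a cluster with *Adamts9*, *Aqp4* and *Gfap* among its leading genes held 443 and 437. In the first, *Gpc5* was 13492 ± 1014 CPM in WT and 12570 ± 1158 CPM in Arctic wells (n = 12 each), *Glul* 672 ± 95.4 and 566 ± 100 CPM, *Slc1a2* 11380 ± 896 and 10735 ± 919 CPM and *Aqp4* 170 ± 54.8 and 219 ± 74.2 CPM. In the second, the Arctic wells had 6213 ± 794 CPM of *Gpc5*, 307 ± 50.6 CPM of *Glul*, 8166 ± 1003 CPM of *Slc1a2* and 465.7 ± 85.7 CPM of *Aqp4*. In the third, *Gpc5* was 4542 ± 1355 CPM in WT and 3197 ± 1089 CPM in Arctic wells, *Glul* 390 ± 118 and 257 ± 118 CPM, *Slc1a2* 8918 ± 1264 and 6576 ± 844 CPM and *Aqp4* 550 ± 234 and 748 ± 242 CPM. As ratios of the Arctic to the WT mean, *Gpc5* was 0.93 in the first cluster and 0.70 in the third, beside 0.62 over all astrocyte nuclei. *Glul* was 0.84 and 0.66, beside 0.59, and *Slc1a2* 0.94 and 0.74, beside 0.78. *Aqp4* was 1.28 and 1.36, beside 1.97. For these 4 genes the ratio was nearer to 1 in the first cluster than over all nuclei, and in the third it was so for all but *Slc1a2*. How much of the whole difference comes from the numbers of nuclei in each cluster was not tested.

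**Figure D5:**
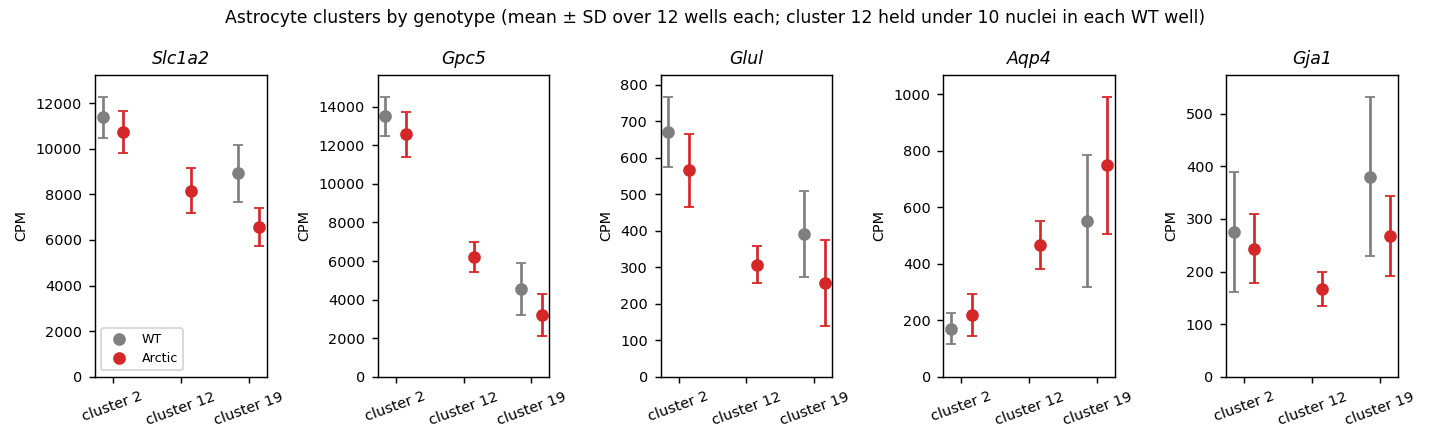
Mean CPM ± SD over wells of 5 members in the 3 astrocyte clusters, in WT (grey) and Arctic (red) wells, with n = 12 wells per point. Against all other nuclei the first gene is *Gpc5* in cluster 2, *Gfap* in cluster 12 and *Slc1a2* in cluster 19. In both genotypes *Slc1a2* is lower in cluster 19 than in cluster 2. In cluster 2 *Gpc5* lies near 13000 CPM for both genotypes, and the WT point of cluster 12 is missing because no WT well held 10 of its nuclei.

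The other genes of these pathways were taken from lists that were chosen with earlier results of these data known. Their counts stand beside the 12.6% of all genes that passed in Arc-veh against WT-veh, as a description and not as independent support. Of 9 tested genes of transmitter handling 0 rose and 4 fell in Arc-veh against WT-veh: glutamate dehydrogenase *Glud1* (-0.64), GABA transaminase *Abat* (-0.61), the GABA transporter *Slc6a11* (-0.56) and the mitochondrial glutamate carrier *Slc25a18* (-0.41), with a list median of -0.18. Of 9 genes of ion and water transport 2 rose, *Atp1b2* (0.86) and *Mlc1* (0.70), and 2 fell, among them the potassium channel *Kcnj16* (-0.62), a partner of Kir4.1. Of 7 genes that anchor endfoot proteins *Utrn* rose (0.33) and *Dmd* fell (-0.31). Of 6 tested glypicans and synapse organisers 1 fell, *Gpc6* (-0.59), and of 8 genes of bicarbonate and lactate transport 1 rose, the lactate transporter *Slc16a1* (1.48). For both of these lists the share that passed was near that of all genes. The 1 connexin-list gene tested did not pass. All 6 reactive genes rose, among them *Serpina3n* (4.96), *Osmr* (3.38), *Gfap* (3.14) and *Vim* (2.77). Between Arc-PMX and Arc-veh 0 genes of any of these lists passed, with list medians from -0.20 (reactive) to 0.07.

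Genes with the profile most like a member over the 24 astrocyte sums (Pearson r of log2 CPM, 7287 genes compared) were *Lsamp* (0.97) and *Ranbp3l* (0.94) for *Gpc5*, *Kirrel3* (0.90) and *Otud7a* (0.89) for *Slc1a2*, *Mertk* (0.89) and *Plcb1* (0.88) for *Glul*, *Apbb1ip* (0.89) and *Erbin* (0.88) for *Aqp4*, and *Sparcl1* (0.79) and *Apoe* (0.78) for *Gja1*. For *Slc1a3* they were *Gm26671* (0.79) and *Rest* (0.76), for *Slc4a4* *Hibadh* (0.78) and *Cadm2* (0.68), for *Kcnj10* *Polg* (0.77) and *Prelid3a* (0.73), and for *Gjb6* *Cmtm5* (0.67) and *Agk* (0.66). The wells share libraries and fall into genotypes. *Ranbp3l* and *Gpc5* had an r of 0.06 within the 12 WT wells and 0.71 within the 12 Arctic ones, while *Gm26671* and *Slc1a3* had 0.84 and 0.81. *Apbb1ip*, also among the 10 leading genes of the microglia cluster, had an r with *Aqp4* of 0.83 within WT and 0.36 within Arctic wells. These are descriptions with no test.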

How the data were processed

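Hippocampal nuclei were barcoded by split-pool ligation (Evercode WT). The authors deposited raw transcript counts per gene and barcode for 7 sublibraries, made with split-pipe on mm10, without normalization. The submitters' processing notes also name bcl2fastq. A sample sheet of the authors gave genotype, treatment and sex of each well. A WT sample was left out by the authors without naming its well, so all wells were kept. Single-cell wells were not used here. Members and lists were chosen with earlier results of these data known.

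Nuclei needed more than 300 and fewer than 50000 transcripts, more than 400 genes and under 1% mitochondrial transcripts. Of 45138, 1253 doublets (Scrublet score above 0.25) were removed. Clusters (scanpy 1.11.5, 2000 variable genes without the members, 30 components, 15 neighbours, Leiden resolution 1.5) were named from markers. Counts were summed per well and type (at least 10 nuclei) and tested by edgeR 4.0.16 (R 4.3.3): TMM, filterByExpr, quasi-likelihood, sex as covariate, Benjamini-Hochberg over all genes, 0.05. DESeq2 1.42.0 was an alternative. On simulated counts with 200 genes changed 2-fold among 7087 in the Arc-veh and WT-veh astrocyte design, 67% were recovered with 3 false calls. Named genes were all members, list genes past the threshold (at most 4 per list by size) and 2 like genes per member. The result of 1 list gene past the threshold is not reported here.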

Additional observations from a re-analysis of the deposited data

Results flagged for a closer look

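In Arc-veh astrocyte nuclei the highest well of *Gja1* (M3, 256 CPM) and of *Slc1a3* (F1, 5526 CPM) stood apart from the other 5 by Dixon's criterion. Of 36 groups tested, chance flags about 1 in 20. The difference between nuclei with and without *Gfap* differed between genotypes for 2 of the 7 members tested, against 2.19% of 1780 genes. For *Gja1* it was lower by 0.93 on the log2 scale in Arctic mice (-0.93, SE 0.22, edgeR adjusted p = 0.00398), and for *Slc1a3* it was higher by 0.39 (SE 0.079, adjusted p = 5.10e-04). This test was chosen after seeing the data. The *Gja1* call was lost with no filter on low counts (-0.46, adjusted p = 0.526), at 500 transcripts (-0.42, adjusted p = 0.831) and with at least 2 *Gfap* transcripts required (-0.59, adjusted p = 0.656). With no filter *Gpc5* and *Slc1a2* moved upward too, so that loss is not particular to *Gja1*.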

How the results depend on the processing

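Of 987 values of called members under an alternative, 34 no longer passed, and of 469 counts of members, 12 moved. In astrocytes each of 31 omissions of a well or a sublibrary gave 4 calls in Arc-veh against WT-veh, 5 in Arc-PMX against WT-PMX, 5 over both treatments and 0 in the PMX205 contrasts. The sex and other-type contrasts had 0 on leaving out single wells, and were not refitted without a sublibrary. With the neuronal level as a covariate, 3 members passed in Arc-PMX against WT-PMX and 3 over both treatments. Leaving out single wells gave 2 to 4 calls between *Gfap* classes, 5 to 9 within them (5 without WT-veh F2) and 2 to 3 for the difference between genotypes.

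Between *Gfap* classes 5 members passed with no filter on low counts, with no thinning and with at least 2 *Gfap* transcripts. The count with no thinning includes *Kcnj10* or *Gjb6*, which were not tested in the main setting and whose values are not given here. Within classes 5 passed with at least 2 transcripts. For the difference between genotypes 4 passed with no filter, 0 at 500 transcripts, 4 with no thinning and 1 with at least 2 transcripts. The shares of all genes that passed under these alternatives are not given here, so the counts describe the members only. Naming nuclei by their highest marker score gave 2 calls in other types, *Slc1a2* in oligodendrocytes (-1.71, adjusted p = 0.0371) and *Glul* in microglia (-1.28, adjusted p = 0.00608). Both genes are low in those types, and the share of all genes is not given for this naming either. Of 4805 member values under an alternative 199 changed sign, and 5 of these had passed before or passed after. They were, with no filter, *Gpc5* (0.38) and *Slc1a2* (0.49) in the difference between genotypes and *Slc1a2* in nuclei with *Gfap* (0.050), and with at least 2 transcripts, when 1 WT-veh and 3 WT-PMX wells were left, *Glul* (0.037) and *Gpc5* (0.16) in nuclei with *Gfap*. With no filter *Gja1* moved upward as well in the difference between genotypes, from -0.93 to -0.46. The changes with no filter are therefore not separate results for each member. The cause was not tested.

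Replicate numbers did not pair the wells (mean correlation of same-numbered wells -0.03, of others -0.04). The replicate block left 4 members in Arc-veh against WT-veh, 5 in Arc-PMX against WT-PMX, 5 over both treatments and 0 in the PMX205 and other-type contrasts. It was not fitted for the sex and *Gfap* contrasts. Fitting only the compared groups was not run where a contrast uses all groups, because that fit is the same. *Kcnj10* and *Gjb6* had 1186 and 1199 counts in all astrocyte nuclei, and at that depth did not pass the filter on low counts in the comparison of *Gfap* classes. Over the whole astrocyte sums their standard errors in Arc-veh against WT-veh were 0.17 and 0.20, beside 0.17 for *Aqp4*.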

Other observations

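The levels of the members within groups were compared over wells, after removal of group and sex means. Of 36 pairs, 0 passed after adjustment by Pearson's r or Spearman's rho. The pair *Slc1a2* and *Glul* had r = 0.57 and rho = 0.61 (permutation test, adjusted p = 0.114 and 0.0515), and r = 0.52 without the 2 farthest wells. The pair *Slc1a3* and *Gja1* had r = -0.54 and rho = -0.59 at the same adjusted p values, and r = -0.48 without the 2 farthest wells. The comparison of pairs was added after seeing the data.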
